A study of Bos taurus with 6 samples.

Results

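The HOX cluster genes of bovine mammary epithelial cells (bMECs) are described here, in cells that carry a knockout of ACADSB and in WT cells. Members were taken by name from the deposited FPKM table, as every gene whose symbol is HOX followed by a cluster letter (A, B, C or D) and a paralogue number. The rule used no expression value. It found 37 of the 32774 genes of that table, with 11 genes in the HOXA cluster, 8 in HOXB, 9 in HOXC and 9 in HOXD. Of the 39 HOX genes in the RefSeq annotation of the ARS-UCD2.0 assembly, 37 matched a member by symbol, and HOXB5 and HOXB8 did not.

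HOX genes encode transcription factors that bind DNA through a homeodomain, usually together with TALE cofactors of the PBX, MEIS and PKNOX families. Mammals carry them in 4 clusters on different chromosomes. Genes with the same paralogue number descend from the same ancestral gene, and the order of the genes along a cluster follows the order in which they are used along the body axis, from low numbers at the anterior end to high numbers at the posterior end. Polycomb complexes hold unused HOX genes silent, Trithorax complexes keep used ones active, and adult cells of a given origin usually retain a characteristic set of active HOX genes. In the mouse, the paralogue 9 genes Hoxa9, Hoxb9 and Hoxd9 are together needed for the growth of the mammary gland around pregnancy.

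RNA-seq was done on 2 groups of 3 libraries each. The ACADSB-/- libraries came from bMECs that had been transiently transfected with a plasmid carrying Cas9, green fluorescent protein and a guide RNA against ACADSB, the gene of the mitochondrial short/branched-chain acyl-CoA dehydrogenase. The WT libraries came from bMECs without the knockout, which the study also calls negative control cells. Both groups were total RNA from cultured cells whose labels give a Chinese Holstein dairy cow in lactation as the source. The study describes a single sorted positive cell that was grown out and RNA that was pooled before library preparation, whereas the series text can be taken to mean 3 knockout lines. Separate cultures behind the libraries are stated in neither source. The p-values below thus rest on library-to-library spread alone, which may be technical, and the history of the sorted cell cannot be told apart from the loss of ACADSB.

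The libraries held 30550275 to 34983965 counts. The knocked-out gene was checked first: ACADSB was read 9, 7 and 15 times in ACADSB-/- cells, against 38, 34 and 20 times in WT cells (log2 fold change −1.60, SE 0.459, adjusted p = 0.00357, edgeR quasi-likelihood test with Benjamini-Hochberg adjustment). Log2 CPM correlated at 0.991 to 0.993 between libraries of the same group, and at 0.950 to 0.956 across the groups. KRT8 and KRT18, the keratins of simple epithelium, had mean levels of 1388 and 1621 FPKM in ACADSB-/- cells. In WT cells they had 1545 and 2329 FPKM. Of the 7 luminal and general epithelial markers 6 were tested, with 2 lower (KRT8 and KRT18) and 3 higher (KRT7, EPCAM and CDH1) in ACADSB-/- cells. The basal keratin KRT5 had 2138 FPKM in ACADSB-/- cells and 1869 FPKM in WT cells. The other basal keratins went the opposite way. KRT17 had 8.36 FPKM in ACADSB-/- cells and 64.7 FPKM in WT cells (7.92-fold lower, edgeR adjusted p = 1.15e-24), and KRT14 had 39.4 FPKM in ACADSB-/- cells and 72.7 FPKM in WT cells (1.89-fold lower, edgeR adjusted p = 4.74e-14). Of the 5 basal markers 2 were thus higher and 2 lower, and their sum was carried by KRT5. None of 5 milk protein genes reached the filter on low counts, and 4 of them had no reads, so the culture carried epithelial keratins without milk protein transcripts. DCN, a matrix gene of fibroblasts, had 607 FPKM in ACADSB-/- cells and 512 FPKM in WT cells, and the 9 fibroblast markers summed to 599 to 626 FPKM in ACADSB-/- libraries, against 503 to 542 FPKM in WT libraries. DCN made up nearly all of that sum, and 5 of the 9 were tested, with 1 higher and 2 lower. The pan-leukocyte gene PTPRC was at 0 in every library, and the 5 endothelial markers stayed below 1 FPKM in sum, with CDH5 at 0. The part of these marker differences in the HOX results was not tested. In bulk RNA, fewer cells that express a gene and less RNA of it per cell cannot be told apart.

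HOX transcripts came mainly from a few genes of the HOXA, HOXB and HOXC clusters, and the HOXD cluster was almost silent. FPKM, the reads of a gene scaled by the length of its model and the reads of the library, is used here for levels, since it allows genes of different length to be compared. HOXB7, a central gene of the HOXB cluster that is often overexpressed in human breast tumours, was the highest, with 22.8, 20.4 and 20.0 FPKM in ACADSB-/- libraries and 19.1, 21.0 and 19.9 FPKM in WT libraries. These values overlapped between the groups. HOXC13, a regulator of hair keratins, led the HOXC cluster with 11.3, 12.7 and 11.4 FPKM in ACADSB-/- libraries and 10.3, 9.55 and 10.7 FPKM in WT libraries. All ACADSB-/- values of HOXC13 lay above all WT values. HOXA9, which maintains blood stem cells and belongs to the paralogue group needed in the mouse mammary gland, led the HOXA cluster with 10.2, 9.07 and 8.43 FPKM in ACADSB-/- libraries and 10.7, 10.1 and 9.54 FPKM in WT libraries. The highest ACADSB-/- value of HOXA9 was above 2 of the 3 WT values.

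On the scale of the whole transcriptome these were moderate levels. HOXB7, at 20.6 FPKM over all 6 libraries, stood at a level reached by 31.0% of the 13720 genes that could be tested, and HOXC13, at 11.0 FPKM, at one reached by 46.7%. The median level of the tested HOX genes was 1.25 FPKM, below the median of 9.64 FPKM over all tested genes. In all, 13 of the 37 HOX genes had a mean of at least 1 FPKM. The 5 members with the highest mean over all 6 libraries held 73.8% to 77.2% of the summed HOX FPKM of a library.

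**Figure D1:**
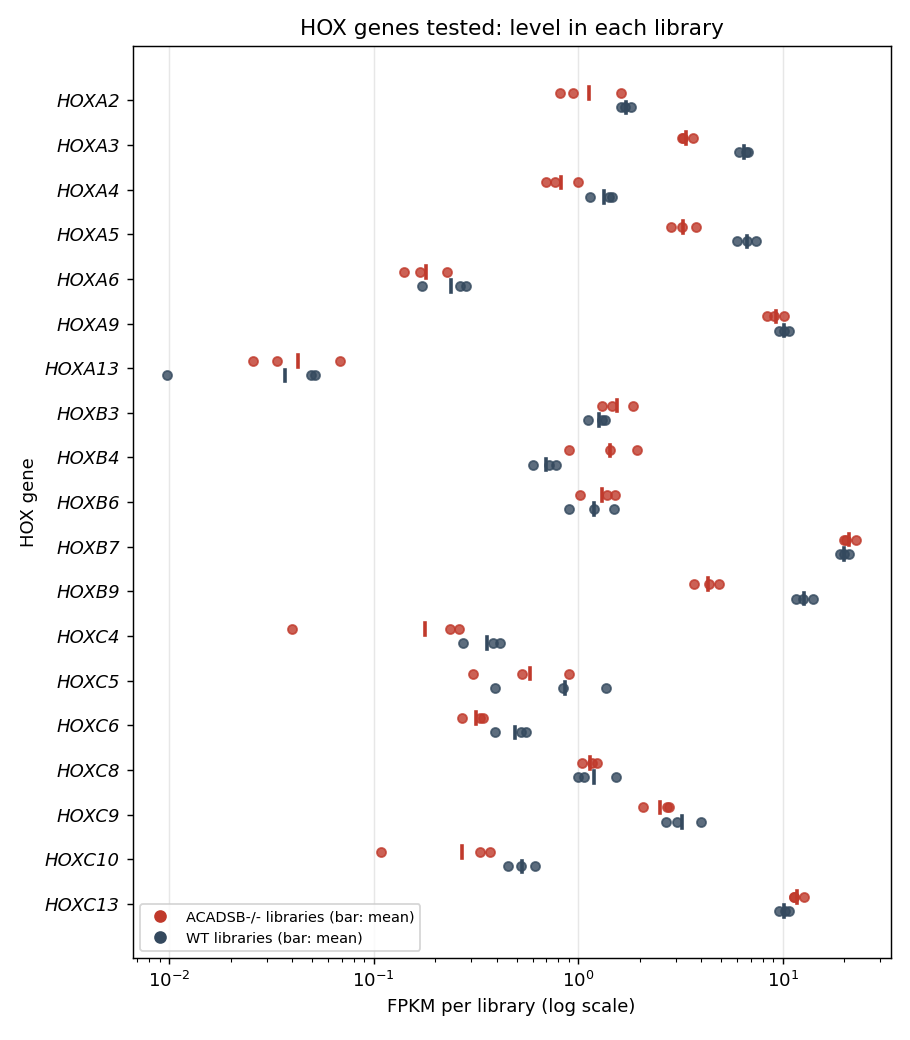
FPKM (log scale) of the 19 tested HOX genes in each library, with ACADSB-/- libraries in red above WT libraries in blue and a bar at each mean. HOXB9, HOXA5 and HOXA3 show ACADSB-/- points well to the left of the WT points, HOXB4 shows them to the right, and HOXB7 shows overlap, at 20.0 to 22.8 FPKM in ACADSB-/- libraries and 19.1 to 21.0 FPKM in WT libraries.

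The comparison of ACADSB-/- with WT cells asks which genes differ once ACADSB is knocked out. Of the HOX genes, HOXA3, HOXA4, HOXA5, HOXB9, HOXC6 and HOXC10 fell and HOXB4 rose in ACADSB-/- cells. Counts were tested for the 19 HOX genes that passed the filter on low counts, so 7 of 19 (36.8%) passed an adjusted p under 0.05, 6 of them lower and 1 higher. Over all 13720 tested genes 58.2% passed, with 28.6% lower and 29.7% higher, so a pass by itself was common and the HOX share did not exceed the background. The HOX genes also carried fewer counts, with a median of 580 over the 6 libraries against 4476 over all tested genes, and had a larger median SE of the log2 fold change, 0.207 against 0.0921. A change of at least 2-fold in addition was seen for 2 of 19 (10.5%), HOXB9 and HOXA5, both lower. The background for that call was 10.2% in either direction, with 4.92% lower and 5.3% higher.

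Of the 19 tested members, 13 had a negative and 6 a positive log2 fold change, with a median of −0.45, against a median of 0.00 over all tested genes. The median of the absolute log2 fold change was 0.62 for the members and 0.31 for all tested genes. On CPM, counts scaled by TMM library totals, there was no overlap between the libraries of the 2 groups for 11 of 19 members, 9 of them lower and 2 higher (HOXB4 and HOXC13) in ACADSB-/- cells. Over all tested genes that share was 63.6%, with 31.7% lower and 31.9% higher.

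HOXB9 showed the largest change among the tested members. This posterior gene, a partner of Hoxa9 and Hoxd9 in the mouse mammary gland, had 4.34, 4.90 and 3.70 FPKM in ACADSB-/- libraries and 11.7, 12.6 and 14.0 FPKM in WT libraries. Each ACADSB-/- library was below 5 FPKM and each WT library above 11 FPKM. The counts were 200, 197 and 151 in ACADSB-/- cells, against 509, 505 and 584 in WT cells, a log2 fold change of −1.59 (SE 0.127, 95% interval −1.86 to −1.34, edgeR adjusted p = 5.84e-12), or 3.02-fold lower. It remained called at 2-fold under all 14 alternatives that gave it a fitted value. The authors' table places HOXB9 on chromosome 19 from 38667731 to 38671682 on the plus strand, with a model of 1316 bases. The sources used here do not give the genome build. In RefSeq the transcripts of HOXB9 overlap HOXB8, and whether the counting separated such reads was not tested.

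The other paralogue 9 genes did not show a change of that size. HOXA9 had a log2 fold change of −0.16 (SE 0.095, 95% interval −0.36 to 0.03, edgeR adjusted p = 0.141). HOXC9, which in the mouse shapes thoracic motor neurons, had 2.07, 2.72 and 2.77 FPKM in ACADSB-/- libraries and 3.04, 3.97 and 2.68 FPKM in WT libraries. These FPKM values overlapped, while the TMM-scaled CPM did not, with 3.07 as the highest value in ACADSB-/- libraries and 3.10 as the lowest in WT libraries. Its log2 fold change of −0.39 did not pass the test (95% interval −0.81 to 0.03, edgeR adjusted p = 0.101). HOXD9 had no reads in any library. The ratio of HOXA9 to HOXB9 FPKM was 2.35, 1.85 and 2.28 in ACADSB-/- libraries, against 0.916, 0.806 and 0.681 in WT libraries, so HOXA9 was the higher of the pair in each ACADSB-/- library and HOXB9 in each WT library.

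HOXA5 and HOXA3 were the next members by adjusted p. HOXA5, which activates the p53 gene and restrains growth in human breast cells, had 3.76, 2.83 and 3.22 FPKM in ACADSB-/- libraries and 7.40, 6.72 and 5.96 FPKM in WT libraries. HOXA3, needed in the mouse for thymus and parathyroid development, had 3.27, 3.64 and 3.20 FPKM in ACADSB-/- libraries and 6.74, 6.58 and 6.08 FPKM in WT libraries. For both genes the highest ACADSB-/- library was more than 2 FPKM below the lowest WT library. HOXA5 fell by 1.06 on the log2 scale (SE 0.140, 95% interval −1.35 to −0.78, edgeR adjusted p = 1.39e-07). HOXA3 fell by 0.98 on the log2 scale (SE 0.111, 95% interval −1.20 to −0.75, edgeR adjusted p = 1.09e-08). Both passed the test under all 14 alternatives, and HOXA5 kept its call at 2-fold in 11 of them. Without ACADSB-/- library 2 its log2 fold change was −0.97, and without WT library 1 it was −0.99, both past the test and short of 2-fold.

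HOXA4, a central gene between them in number, had 0.996, 0.767 and 0.698 FPKM in ACADSB-/- libraries and 1.14, 1.42 and 1.46 FPKM in WT libraries. The groups did not overlap, with the highest ACADSB-/- library close to the lowest WT library. HOXA4 fell by 0.73 on the log2 scale (SE 0.269, edgeR adjusted p = 0.0207). The call was lost without ACADSB-/- library 2 (adjusted p = 0.0566), without ACADSB-/- library 3 (adjusted p = 0.0737) and without WT library 3 (adjusted p = 0.0706), in a range of 0.00878 to 0.0737 over all 14 alternatives.

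HOXA3, HOXA4 and HOXA5 lie next to each other in the deposited annotation, on the plus strand of chromosome 4. HOXA5 runs from 69592767 to 69595434 and HOXA3 from 69596322 to 69628749, 0.887 kb apart. The whole model of HOXA4, 2215 bases long, lies inside that of HOXA3 on the same strand, and HOXA5 and HOXA3 overlap in RefSeq. Reads of these genes may be shared between them, so the 3 values are not separate measurements of 3 transcripts. HOXA6, 0.697 kb before HOXA5 in the deposited annotation, had 27, 32 and 20 counts in ACADSB-/- libraries. In WT libraries it had 40, 24 and 41, which overlapped (log2 fold change −0.45, edgeR adjusted p = 0.309). In RefSeq HOXA5 and HOXA6 overlap by 6917 bases, and HOXA5 and HOXA3 by 54. Reads may thus be shared between HOXA5 and HOXA6 as well. HOXA2, on the other side of HOXA3 and known for hindbrain and jaw patterning, had 1.61, 0.948 and 0.815 FPKM in ACADSB-/- libraries and 1.61, 1.70 and 1.80 FPKM in WT libraries. One ACADSB-/- library thus equalled the lowest WT library to 3 digits. Its log2 fold change of −0.62 was just outside the threshold (edgeR adjusted p = 0.0535) and went past it in 7 of 14 alternatives, with the lowest adjusted p, 0.00752, without ACADSB-/- library 1.

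**Figure D2:**
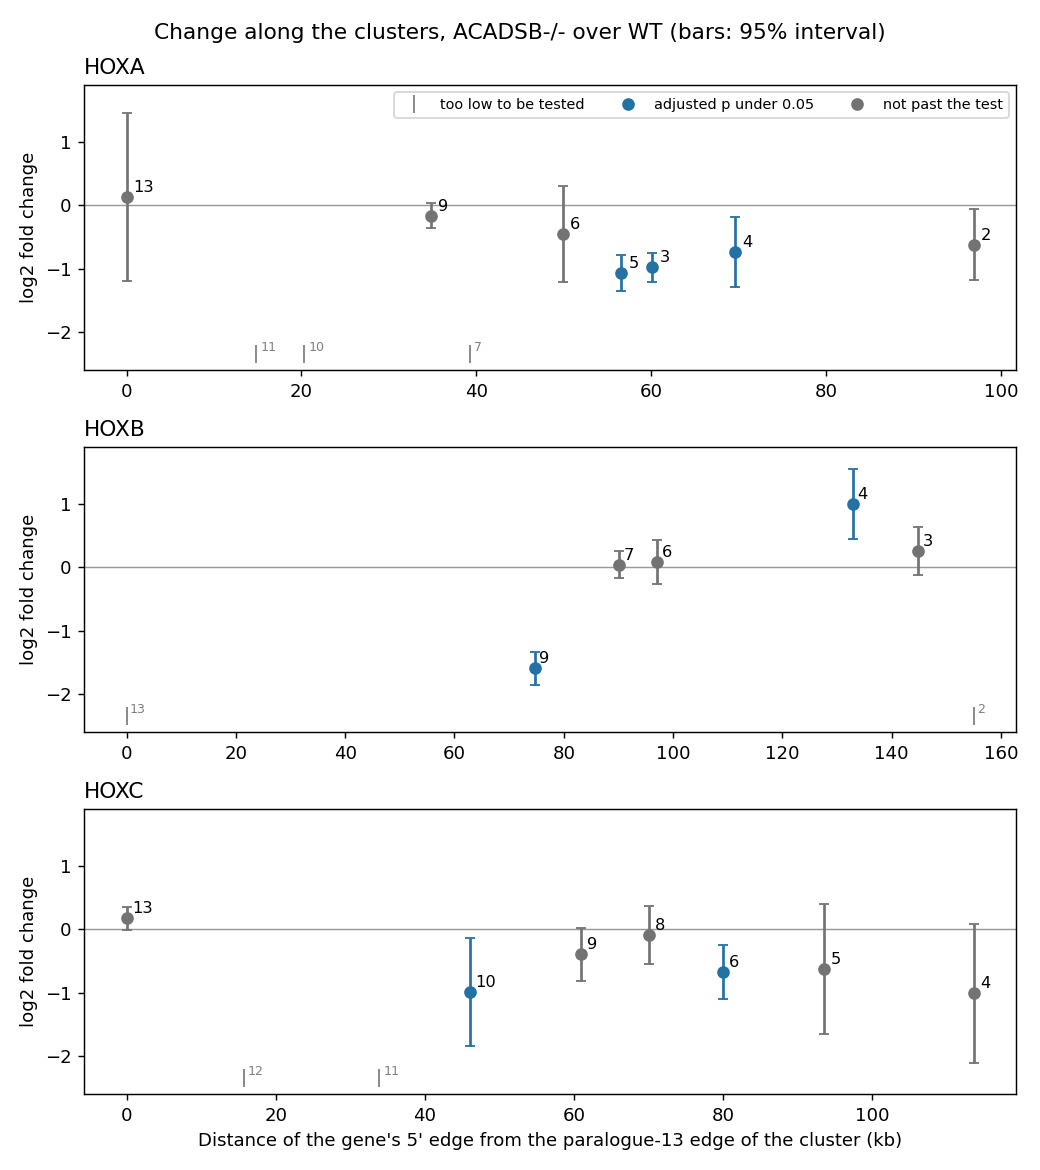
Log2 fold change (ACADSB-/- over WT) of each tested HOX gene along its cluster in the deposited annotation, with 95% intervals. The axis is the distance in kb of the gene's 5′ edge from the paralogue-13 edge of its cluster. HOXB3 and HOXB4, on the minus strand, are placed by their 3′ edge. Numbers are paralogue numbers, blue marks an adjusted p under 0.05, and grey ticks mark genes too low to be tested, drawn from paralogue 2 on. In HOXA the called genes 3, 4 and 5 adjoin, and in HOXB the called genes 9 (−1.59) and 4 (1.00) lie apart and on opposite sides of 0.

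HOXB4 was the only tested member that passed the threshold as higher in ACADSB-/- cells. This gene, known for expanding blood stem cells when overexpressed, had 1.94, 1.44 and 0.902 FPKM in ACADSB-/- libraries and 0.783, 0.718 and 0.598 FPKM in WT libraries. The ACADSB-/- libraries spread over a range of more than 1 FPKM, and the lowest of them was still above the highest WT library. The counts were 136, 88 and 56 in ACADSB-/- cells, against 52, 44 and 38 in WT cells. HOXB4 rose by 1.00 on the log2 scale (SE 0.272, 95% interval 0.44 to 1.55, edgeR adjusted p = 0.00231), a value just under 1 before rounding, so it was not called at 2-fold. Without ACADSB-/- library 1 the log2 fold change was 0.71 and the call was lost (adjusted p = 0.0545, with a range of 4.47e-04 to 0.0545 over 14 alternatives). The table places HOXB4 on chromosome 19 from 38725920 to 38728743 on the minus strand, whereas HOXB7 and HOXB9 are on the plus strand. In RefSeq HOXB3 overlaps HOXB4, and with the strandedness of counting not stated, reads of overlapping or antisense transcripts may enter either gene.

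In the HOXC cluster 2 genes passed the threshold, both lower in ACADSB-/- cells. HOXC6, expressed in the mouse mammary gland, had 0.331, 0.270 and 0.344 FPKM in ACADSB-/- libraries and 0.527, 0.553 and 0.391 FPKM in WT libraries, without overlap. It fell by 0.67 on the log2 scale (SE 0.207, edgeR adjusted p = 0.00670). HOXC6 missed the threshold with limma on log2(FPKM + 1) (adjusted p = 0.0698) and on log2(FPKM + 0.1) (adjusted p = 0.0792), and the range over 14 alternatives was 0.00334 to 0.0792.

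HOXC10, a gene of hindlimb motor neurons, had 27, 21 and 7 counts in ACADSB-/- libraries, against 36, 39 and 30 counts in WT libraries. The groups did not overlap, and ACADSB-/- library 3 stood lowest. It fell by 0.99 on the log2 scale (SE 0.418, edgeR adjusted p = 0.0437). This call was the least stable of the 7, since it was lost in 6 of 13 alternatives: with DESeq2 (adjusted p = 0.0719) and without ACADSB-/- library 2 (0.0517), ACADSB-/- library 3 (0.212), WT library 1 (0.0697), WT library 2 (0.123) or WT library 3 (0.0538). Without ACADSB-/- library 3 its log2 fold change was −0.61.

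The remaining tested members did not pass. HOXC13 had a log2 fold change of 0.18 (SE 0.087, 95% interval 0.00 to 0.36, edgeR adjusted p = 0.0828), and passed only in the limma fits on log2(FPKM + 1) and log2(FPKM + 0.1) (adjusted p = 0.0440 and 0.0435), with a range of 0.0435 to 0.334 over 14 alternatives. HOXB7 had 0.04 (95% interval −0.17 to 0.26, adjusted p = 0.748), which bounds a change of this gene to well under 2-fold in either direction. HOXC8, a gene of thoracic patterning, had −0.09 (95% interval −0.55 to 0.37, adjusted p = 0.761).

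HOXB3 and HOXB6 were at similar levels to HOXB4. In RefSeq HOXB3 and HOXB6 overlap by 7401 bases, and whether the counting separated such reads was not tested. HOXB3 had 1.31, 1.46 and 1.86 FPKM in ACADSB-/- libraries and 1.31, 1.35 and 1.12 FPKM in WT libraries, with overlap. HOXB6 had 1.02, 1.38 and 1.51 FPKM in ACADSB-/- libraries and 1.50, 1.19 and 0.902 FPKM in WT libraries, with overlap as well. Their log2 fold changes of 0.26 (95% interval −0.12 to 0.63) and 0.08 (95% interval −0.27 to 0.44) did not pass the edgeR test (adjusted p = 0.232 and 0.692). For HOXC4 and HOXC5 the depth was low: HOXC4 had 15, 2 and 12 counts in ACADSB-/- libraries, against 15, 21 and 20 in WT libraries, and HOXC5 had 14, 7 and 21 counts in ACADSB-/- libraries, against 34, 9 and 20 in WT libraries. HOXC4 had a log2 fold change of −1.01 with a 95% interval of −2.10 to 0.09 (edgeR adjusted p = 0.108), and without ACADSB-/- library 2 it was −0.56. HOXC5 had −0.62 with a 95% interval of −1.65 to 0.40 (adjusted p = 0.297). HOXA13, a gene of the distal limb and the urogenital tract, had between 2 and 14 counts per library, and its log2 fold change of 0.13 (95% interval −1.20 to 1.46) left a change of 2-fold in either direction within the interval.

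Another 18 members were below the filter and were not tested. HOXA7 had 3, 8 and 5 counts in ACADSB-/- libraries, against 8, 15 and 14 in WT libraries. The highest ACADSB-/- library and the lowest WT library of HOXA7 both had 8 counts. HOXA11 and HOXC11 reached at most 9 counts in a library. The other 14 members are outside the authors' count table, and their reads were recovered from the FPKM values. Of these, HOXC12 had 4, 0 and 5 reads in ACADSB-/- libraries and 0 in all WT libraries, HOXA10 had 2 reads in 1 WT library, and HOXB2 had 1 read in each of 2 libraries.

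The HOXD cluster was silent at this depth. HOXD4 had 1 read in ACADSB-/- library 2, and HOXD1, HOXD3, HOXD8, HOXD9, HOXD10, HOXD11, HOXD12 and HOXD13 had none in any library, as did HOXB1 and HOXB13, so 10 of the 37 members had no reads at all. A count of 0 allows up to 3 counts, or 0.0858 to 0.0982 CPM in a library (these floors cover counting error only). The cluster ends themselves were thus not uniformly quiet: HOXC13 was among the highest members, while HOXB13 and HOXD13 were at 0 and HOXA13 was at 0.0399 FPKM.

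By cluster, 3 of 7 tested HOXA genes passed, all lower, with a median log2 fold change of −0.62. In HOXB, 2 of 5 passed, 1 higher and 1 lower, with a median of 0.08. In HOXC, 2 of 7 passed, both lower, with a median of −0.62, and no HOXD gene could be tested. These counts are set against the 28.6% lower and 29.7% higher over all tested genes.

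By position in the cluster, 1 of 3 tested genes of paralogue 1 to 3 passed (lower), 4 of 10 of paralogue 4 to 8 (3 lower and 1 higher) and 2 of 6 of paralogue 9 to 13 (both lower). In paralogue 4, HOXA4 fell, HOXB4 rose and HOXC4 did not pass. In paralogue 3, HOXA3 fell and HOXB3 had an interval that included 0. In paralogue 6, HOXC6 fell, and HOXA6 and HOXB6 had intervals that included 0. Paralogue 4 was the only number with calls in both directions.

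**Figure D3:**
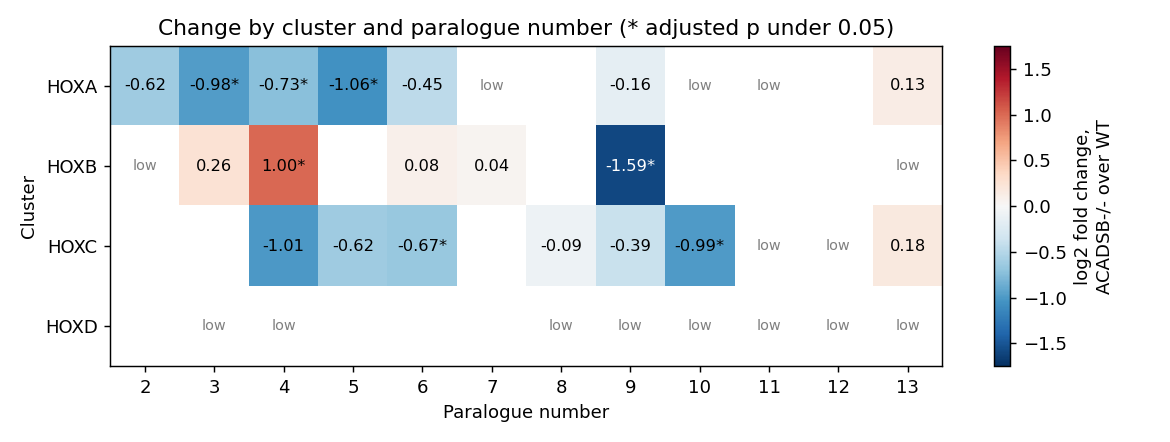
Log2 fold change (ACADSB-/- over WT) by cluster (rows) and paralogue number (columns, from 2 to 13), with an asterisk at an adjusted p under 0.05, "low" for members below the filter on low counts and blank where no member exists. Blue is lower and red is higher in ACADSB-/- cells. Paralogue 4 holds −0.73 in HOXA and 1.00 in HOXB, and the HOXD row is low throughout.

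Ratios between paralogues were compared within each library, which removes differences in total depth. Of 12 pairs with both genes tested, 6 had ratios that did not overlap between the groups. The exact two-sided permutation test gave p = 0.10 for each of these 6, the smallest value that 3 against 3 libraries allow. After Benjamini-Hochberg adjustment over the 12 pairs it was 0.2. No pair could have passed at this number of libraries, so the test decides nothing about the ratios. HOXA4 to HOXB4 had ratios of 0.514, 0.534 and 0.774 in ACADSB-/- libraries, against 1.46, 1.97 and 2.44 in WT libraries, which reversed the order of the pair. HOXA3 to HOXB3 had 2.50, 2.49 and 1.72 in ACADSB-/- libraries, against 5.17, 4.89 and 5.43 in WT libraries, so HOXA3 was the higher one in every library. HOXB9 to HOXC9 had 2.09, 1.80 and 1.34 in ACADSB-/- libraries, against 3.83, 3.17 and 5.22 in WT libraries, with HOXB9 higher in every library. HOXB6 to HOXC6 had 3.08, 5.11 and 4.41 in ACADSB-/- libraries, against 2.85, 2.15 and 2.31 in WT libraries.

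Summed over all 37 members, HOX FPKM was 67.9, 65.2 and 62.0 in ACADSB-/- libraries, against 79.6, 81.3 and 79.0 in WT libraries. The means were 65.0 ± 2.96 FPKM in ACADSB-/- cells and 79.9 ± 1.21 FPKM in WT cells (SD, n = 3 each), and the groups did not overlap. HOXB9, HOXA5 and HOXA3 together differed by −14.9 FPKM, the same as the difference of −14.9 FPKM in the whole sum, with −8.43 FPKM from HOXB9, −3.42 FPKM from HOXA5 and −3.10 FPKM from HOXA3. Without these 3 genes the sum was 56.5, 53.8 and 51.9 FPKM in ACADSB-/- libraries and 53.8, 55.4 and 52.9 FPKM in WT libraries, which overlapped. The 3 genes were picked by their change, so these sums are a description.

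The HOXA genes summed to 20.2, 18.0 and 16.8 FPKM in ACADSB-/- libraries and 28.1, 27.3 and 25.7 FPKM in WT libraries, without overlap. The HOXB genes summed to 31.4, 29.6 and 28.0 FPKM in ACADSB-/- libraries and 34.4, 36.9 and 36.6 FPKM in WT libraries, also without overlap. The HOXC genes summed to 16.3, 17.6 and 17.2 FPKM in ACADSB-/- libraries and 17.2, 17.2 and 16.7 FPKM in WT libraries, with overlap. As shares of the whole, HOXA held 28.1% ± 1.42 in ACADSB-/- cells and 33.8% ± 1.38 in WT cells, HOXB 45.6% ± 0.587 in ACADSB-/- cells and 44.9% ± 1.61 in WT cells, and HOXC 26.2% ± 2.01 in ACADSB-/- cells and 21.3% ± 0.245 in WT cells (SD, n = 3 each). The shares of HOXA and HOXC did not overlap between the groups and those of HOXB did. Without HOXB7, the highest member, the HOXB share was 19.6% in ACADSB-/- cells and 26.6% in WT cells.

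By position, the genes of paralogue 1 to 3 summed to 6.30, 6.30 and 6.01 FPKM in ACADSB-/- libraries and 9.72, 9.96 and 9.31 FPKM in WT libraries. Those of paralogue 9 to 13 summed to 28.5, 30.1 and 26.8 FPKM in ACADSB-/- libraries and 36.4, 37.0 and 37.8 FPKM in WT libraries. Neither overlapped, while those of paralogue 4 to 8 did, with 33.1, 28.8 and 29.2 FPKM in ACADSB-/- libraries and 33.5, 34.3 and 31.9 FPKM in WT libraries. HOXB7 carried most of the last sum, and HOXB9 most of the posterior difference.

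**Figure D4:**
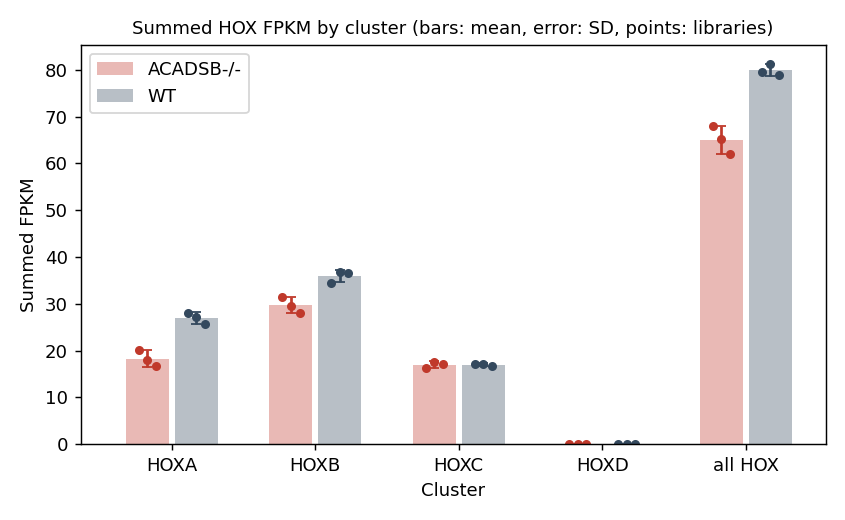
Summed FPKM of the HOX genes of each cluster and of all 37, as mean (bar), SD (error) and single libraries (points), with ACADSB-/- left of WT. The sum over all HOX genes was 65.0 FPKM in ACADSB-/- cells and 79.9 FPKM in WT cells, HOXC differed by less than its spread, and HOXD was near 0.

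Other transcripts lie within the spans of the clusters. A gene listed as LOC785855, between HOXB7 and HOXB9, has the gene identifier of HOXB8 in RefSeq. It had 129, 97 and 97 counts in ACADSB-/- libraries, against 162, 120 and 156 in WT libraries (log2 fold change −0.49, edgeR adjusted p = 0.0206). The call was lost in 4 of the 6 fits that left out 1 library: without ACADSB-/- library 2 (adjusted p = 0.0604) or 3 (0.0679), or WT library 1 (0.0609) or 3 (0.0757). A neighbouring entry described as Hox-B8-like (LOC100337349) had 89, 41 and 52 counts in ACADSB-/- libraries, against 80, 71 and 81 in WT libraries, with overlap (log2 fold change −0.41, adjusted p = 0.165), and passed only without ACADSB-/- library 1 (adjusted p = 0.0334). Whether reads were shared between these entries was not tested. The microRNA entries in the spans had between 0 and 9 counts in a library.

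Further entries with no HOX name were read in the HOXA and HOXD spans. LOC107132413, on the strand opposite to HOXA3 and inside its model, had 93, 93 and 112 counts in ACADSB-/- libraries, against 135, 126 and 155 in WT libraries (log2 fold change −0.53, edgeR adjusted p = 0.0168). LOC100848443, a long non-coding RNA beyond HOXA2 on the minus strand, had 434, 366 and 357 counts in ACADSB-/- libraries, against 384, 318 and 351 in WT libraries, with overlap. Its level of 15.7 FPKM in ACADSB-/- cells and 14.5 FPKM in WT cells was above that of each protein-coding HOXA gene. In the silent HOXD span, LOC107132238 had no counts in any ACADSB-/- library and 11, 10 and 17 in WT libraries, and was at least 4.26-fold lower in ACADSB-/- cells when each ACADSB-/- library is set to the floor of 3 counts.

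The TALE cofactors were expressed as a group, with PBX2 at the highest level (58.4 FPKM in ACADSB-/- cells and 53.7 FPKM in WT cells, adjusted p = 0.137). Of 8 tested, 3 were lower and 1 higher, so 4 of 8 passed the threshold, beside 58.2% of all tested genes. MEIS3, a partner of HOX proteins in hindbrain patterning, had 0.756, 0.718 and 0.604 FPKM in ACADSB-/- libraries and 10.4, 11.4 and 11.7 FPKM in WT libraries. It fell by 4.04 on the log2 scale (SE 0.158, edgeR adjusted p = 2.04e-19), and PKNOX2 had no reads. MEIS2 and PKNOX1 also fell, by 0.59 and 0.34 on the log2 scale, and PBX3 rose by 0.42 (adjusted p = 0.00597, 7.83e-04 and 7.75e-04). The call of MEIS2 was lost without ACADSB-/- library 3 (adjusted p = 0.0656).

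Of 25 Polycomb genes, all tested, 6 were higher, 6 lower and 13 not past the threshold, a share of 48.0% against the 58.2% over all tested genes. BMI1, a ring finger subunit of the complex that ubiquitinates histone H2A, had 91.8, 93.2 and 95.5 FPKM in ACADSB-/- libraries and 30.9, 36.0 and 31.4 FPKM in WT libraries, and rose by 1.48 on the log2 scale (SE 0.061, edgeR adjusted p = 7.08e-19). CBX2, a chromodomain subunit of the same kind of complex, had 1.25, 1.37 and 1.16 FPKM in ACADSB-/- libraries and 4.03, 3.74 and 4.13 FPKM in WT libraries, and fell by 1.68 (adjusted p = 2.58e-09). CBX6, another chromodomain subunit, had 0.765, 0.744 and 0.914 FPKM in ACADSB-/- libraries and 2.49, 1.91 and 2.21 FPKM in WT libraries, and fell by 1.48 (adjusted p = 1.45e-08). None of the 3 overlapped between the groups. The histone-binding subunit RBBP7 had the highest level of the list, 147 FPKM in ACADSB-/- cells and 153 FPKM in WT cells, and did not pass (adjusted p = 0.0909).

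Of 14 Trithorax and demethylase genes, 4 were higher and 5 lower (64.3%, beside 58.2% of all tested genes), none by 2-fold. DPY30, a shared subunit of the histone methyltransferase complexes and the most highly expressed of them, had 61.8, 64.2 and 58.3 FPKM in ACADSB-/- libraries and 84.1, 105 and 93.7 FPKM in WT libraries, and fell by 0.65 on the log2 scale (adjusted p = 1.70e-08). Among 11 upstream factors, 6 were tested, with 3 higher and 1 lower (66.7%, beside the same 58.2%) and none by 2-fold, and CDX1, CDX2, CDX4 and RXRG had no reads. GMNN, a replication licensing inhibitor that also binds HOX proteins, had the highest level of that list, 36.2 ± 1.96 FPKM in ACADSB-/- cells and 49.0 ± 9.39 FPKM in WT cells (SD, n = 3 each), and fell by 0.47 (edgeR adjusted p = 0.00457).

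Genes that flank the clusters were read for comparison with the genes inside. TTLL6, 26.1 kb beyond HOXB13, had at most 3 reads in a library and was not tested. SKAP1, an adaptor protein gene 101 kb beyond HOXB1, had 14.4, 15.9 and 14.5 FPKM in ACADSB-/- libraries and 5.60, 4.70 and 6.29 FPKM in WT libraries, and rose by 1.40 on the log2 scale (SE 0.111, edgeR adjusted p = 5.32e-12), while HOXB1 beside it had no reads in either group. On the far side of the silent HOXD cluster, KIAA1715, 85.5 kb from HOXD13, rose by 0.70 (15.8 ± 0.483 FPKM in ACADSB-/- cells and 9.48 ± 1.21 FPKM in WT cells, SD, n = 3 each, adjusted p = 6.03e-08). MTX2, a mitochondrial import gene 80.2 kb from HOXD1, had 30.1 FPKM in ACADSB-/- cells and 29.9 FPKM in WT cells (adjusted p = 0.805). Both flanks of the HOXD cluster were thus expressed while the cluster was not. Beside HOXA, SKAP2 rose by 0.43 (adjusted p = 1.49e-07), and HIBADH, a valine breakdown enzyme gene beyond HOXA13, had 52.7 FPKM in ACADSB-/- cells and 47.0 FPKM in WT cells with overlap (adjusted p = 0.0594). EVX1, a homeobox gene 41.4 kb from HOXA13, had 0.917, 0.943 and 0.850 FPKM in ACADSB-/- libraries and 1.17, 1.56 and 1.48 FPKM in WT libraries, without overlap, and its log2 fold change of −0.66 did not pass (edgeR adjusted p = 0.0560). Beside HOXC, SMUG1, a DNA repair glycosylase gene, rose by 0.33 (17.4 FPKM in ACADSB-/- cells and 13.5 FPKM in WT cells, adjusted p = 0.00599), and CBX5, a heterochromatin protein gene, had 32.2 FPKM in ACADSB-/- cells and 34.2 FPKM in WT cells with overlap (adjusted p = 0.195).

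**Figure D5:**
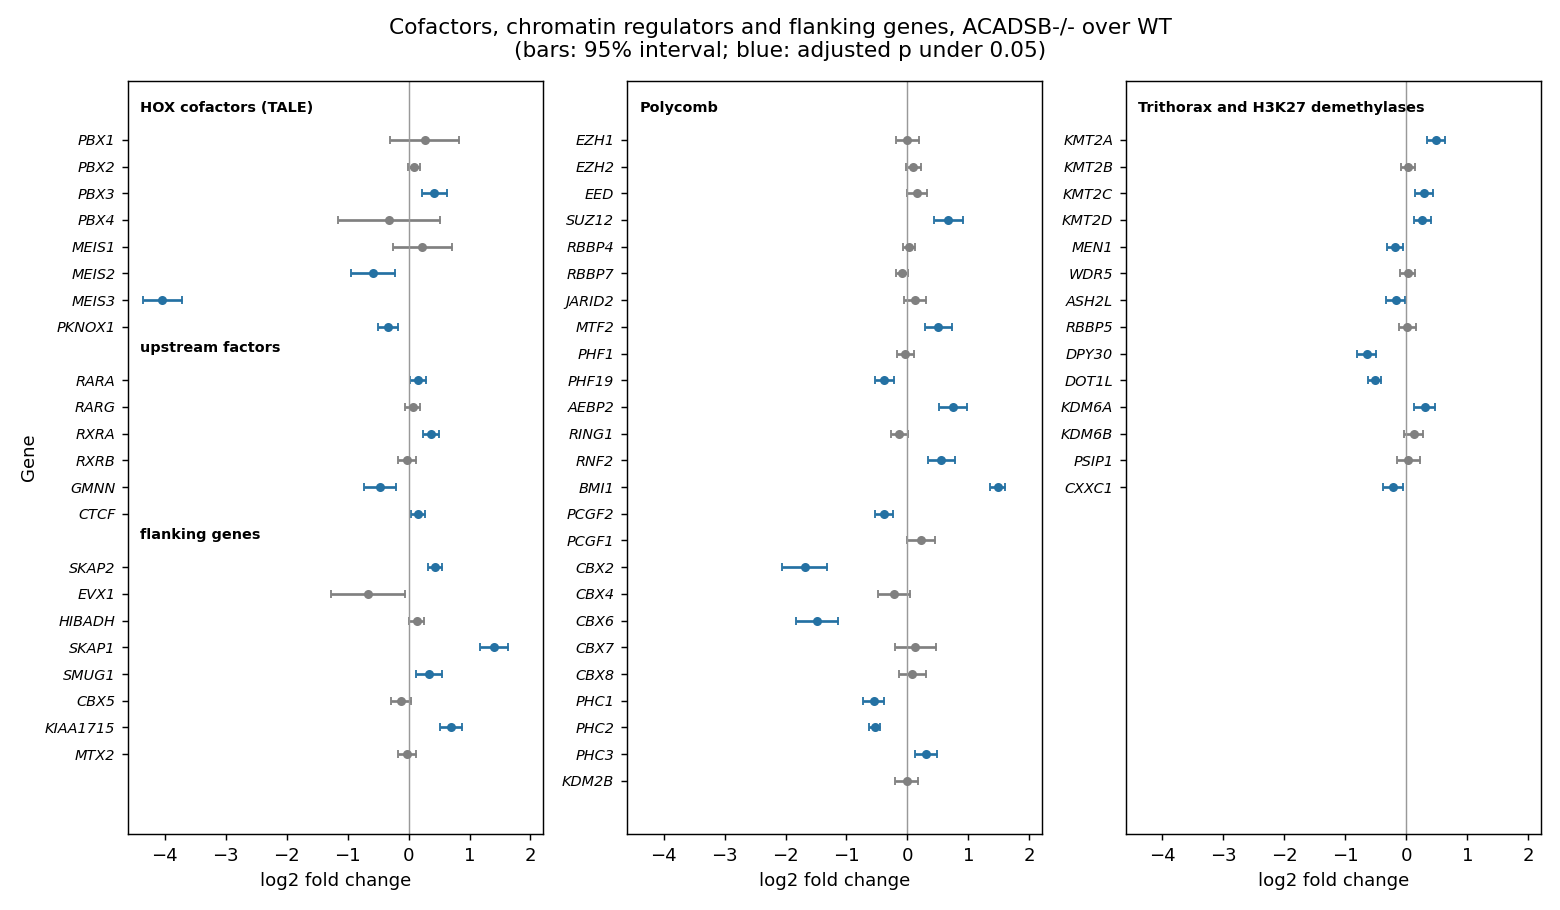
Log2 fold change (ACADSB-/- over WT) with 95% intervals for the tested TALE cofactors, upstream factors, flanking genes, Polycomb genes, and Trithorax and demethylase genes, with an adjusted p under 0.05 in blue. MEIS3 stands apart at −4.04, and BMI1 at 1.48 and CBX2 at −1.68 are the furthest Polycomb genes on each side.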

How the data were processed

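RNA-seq libraries of ACADSB-/- and WT bMECs (3 each) were grouped by their sample labels. The authors removed adapters and low-quality reads, aligned the rest to the bovine genome and deposited a table of raw counts (15693 genes) and a table of FPKM (32774 genes). Which aligner, counter, genome build and annotation were used, and whether counting used strand, is not stated in the sources at hand. Bismark 0.12.5 is named in the submitters' processing notes without a role. The deposited fold changes, p-values and FDR are the authors' own comparison and were not used. Another 3 per-sample columns belong to none of these samples and were not used.

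The deposited FPKM gave whole reads, within 0.02 of a read, for 99.9878% to 99.9908% of the genes of a library, so reads of genes outside the count table were recovered from it. Counts were tested with edgeR 4.0.16 (quasi-likelihood test, robust) in R 4.3.3 over all 6 libraries, with TMM scaling (factors 0.978 to 1.02) and filterByExpr (at least 10 counts, and 15 in total), after which 13720 genes remained. Benjamini-Hochberg adjustment ran over all of these. The fits were tested on simulated data. Alternatives were DESeq2 1.42.0, DESeq2 size factors, limma 3.58.1 on log2(FPKM + 1) and log2(FPKM + 0.1), no filter, a mean of at least 50 counts, a test against 2-fold, no robust estimation, the replicate number as a block and each library left out in turn. Sums, shares and ratios of FPKM were taken per library. Figures used matplotlib 3.10.9.

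Named with every library's value were HOX genes past an adjusted p of 0.05 and the highest member of each cluster. Genes of the other lists were named when changed 2-fold or highest in their list, and further ones were chosen after their values were seen. The members and the lists were chosen with earlier results of these data known. RefSeq (ARS-UCD2.0) was used for names and overlaps only. Values of a few genes are not reported here.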

Additional observations from a re-analysis of the deposited data

Results flagged for a closer look

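HOXC12 is outside the authors' count table, and its reads were recovered from the FPKM values. It had 4, 0 and 5 reads in the ACADSB-/- libraries and 0 in each WT library. The highest library had 5 reads, and a count of 0 allows up to 3. A count of 5 carries counting error too, so no difference between the groups is drawn from these reads. One ACADSB-/- library had none, and no test was made.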

How the results depend on the processing

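Of 261 values of the tested HOX genes over 14 alternatives, 234 kept their direction and their side of the threshold, 12 lost the call, 9 gained it and 6 changed sign. The sign changes were in genes far from the threshold: HOXB7 (−0.021 without ACADSB-/- replicate 1, highest 0.087), HOXA13 (−0.37 without ACADSB-/- replicate 2 and −0.31 without WT replicate 2, highest 0.44), HOXB6 (−0.026 without ACADSB-/- replicate 3 and −0.083 without WT replicate 3, highest 0.28) and HOXC8 (0.11 without WT replicate 2, lowest −0.20), on the log2 scale with 1 library left out. The cause was not tested. The number of HOX genes past the threshold was 5 to 7 with 1 library left out, and the number called at 2-fold 2 to 3. It was 1 (HOXB9) with limma on log2(FPKM + 1) and with the test against 2-fold. Over all genes the 2-fold calls numbered 1402, and 540 with limma on log2(FPKM + 1), 855 with a mean of at least 50 counts (fewer genes tested), 661 with the test against 2-fold and 1371 to 1487 with 1 library left out. All genes past the threshold numbered 7990, and 7271 to 8047 with 1 library left out.

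Cluster shares depended on gene length and on HOXB7. With read counts in place of FPKM HOXA held 34.4% in ACADSB-/- and 41.2% in WT, HOXB 32.8% in ACADSB-/- and 32.3% in WT, and HOXC 32.9% in ACADSB-/- and 26.5% in WT. Without HOXB7, HOXA held 41.6% in ACADSB-/- and 45.0% in WT, HOXB 19.6% in ACADSB-/- and 26.6% in WT, and HOXC 38.8% in ACADSB-/- and 28.4% in WT. With the Hox-B8-like entry (LOC100337349), a choice made after seeing the data, HOXB held 47.8% in ACADSB-/- and 47.3% in WT, and in WT HOXA held 32.3% and HOXC 20.4%. LOC785855, which has the gene identifier of HOXB8 in RefSeq, was in none of these HOXB shares. With 1 library left out, the shares in ACADSB-/- were 27.3% to 28.6% (HOXA), 45.3% to 45.9% (HOXB) and 25.5% to 27.4% (HOXC), and in WT 33.0% to 34.4%, 44.3% to 45.8% and 21.2% to 21.4%.

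The replicate numbers did not pair the libraries (correlations of deviations between same-numbered libraries −0.0402, −0.0256 and −0.0236). With the replicate number as a block, 8 HOX genes passed the threshold, 3 were called at 2-fold, and 7806 of all genes passed. Depth limits HOX genes with few counts: HOXA13 had a SE of 0.650.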
